A study of Cricetulus griseus with 16 samples.

Results

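The BCL2 family decides whether a cell keeps or opens the outer membrane of its mitochondria, the step that commits it to intrinsic apoptosis. Guardians such as MCL1 and BCL-XL bind and restrain the effectors BAX and BAK, and the BH3-only proteins (among them BIM, PUMA, NOXA, BID, BAD and BMF) sense damage and either occupy the guardians or act on the effectors. Many family members are short-lived or are controlled at the level of transcription, so their mRNAs are commonly followed in stressed cells.

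The 10 genes examined were chosen by name from the table of read counts per gene, ignoring letter case. They were the anti-apoptotic Mcl1 and Bcl2l1 (BCL-XL), the effectors Bax and Bak1, and the BH3-only genes Bcl2l11 (BIM), Bbc3 (PUMA), Pmaip1 (NOXA), Bid, Bad and Bmf. Of these 10 genes, 9 had a row among 20824 genes, 8 had at least 1 count and 7 were abundant enough to be tested in every comparison. Bad had no row under its name, and 4423 rows carried an identifier only, so Bad was not analysed here.

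RNA came from CHO cells (ATCC CCL-61), an established line from Chinese hamster ovary, all seeded 24 h before heating. The 16 libraries were 4 biological repeats, lettered A to D, of 4 groups: unheated cells at 37 °C, a mild heat of 40 °C lasting 1 h or 6 h, and a moderate heat of 42.5 °C lasting 1 h. No other agent or genetic change was named for any group, and the cells are 1 line. No time was given for the 37 °C cells. In comparisons with 40 °C for 6 h, heat and hours in culture after seeding therefore cannot be told apart. The study compared each heat treatment with the unheated cells, and the comparisons between heated groups were added here. Adjusted p-values came from edgeR's quasi-likelihood test over all tested genes, and a gene was called when it passed both limits, 0.05 for the adjusted p and 1.5 for the fold change in either direction.

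The libraries held from 10504192 to 14668365 counts in total. The mesenchymal markers Vim and Fn1 were between 1823 and 2683 CPM (counts relative to the library's total, scaled to a common base) and between 210 and 435 CPM, whereas Epcam, Ptprc and Cd3e, which mark epithelium and blood cells, had at most 1 count, the epithelial Cdh1 was between 1.70 and 4.14 CPM (20 to 48 counts), and Pecam1 and Alb at most 4 counts in any library. Krt8 and Krt18, also looked for as epithelial markers, had no row under their names. The heat-responsive genes Dnajb1, Hspb1 and Zfand2a were all called higher at 40 °C for 1 h and at 42.5 °C, and 2 of these 3 were called at 40 °C for 6 h. The 37 °C replicate D stood apart: chi-square per degree of freedom was between 41.8 and 49.4 in pairs with it and between 2.55 and 8.02 in all other pairs of replicates. It was left out of the tests, as in the study, and its values are given separately.

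All CPM were scaled by the trimmed mean of M values (TMM), so each is a level relative to the library's other RNA and not an amount per cell. In such bulk samples, fewer cells expressing a gene and less of its RNA per cell cannot be told apart. Gene lengths were not used, so levels were compared between groups and not between genes. Counts are per gene, so splice forms, which in Mcl1 and Bcl2l1 can have opposite actions, were not separated.

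At 42.5 °C for 1 h, 3 of the 7 tested members were called against 37 °C. Mcl1 rose 1.95-fold and Bcl2l11 rose 1.53-fold, whereas Bbc3 fell 2.02-fold. Of all tested genes, 7.51% were called in this comparison, 2.83% higher and 4.68% lower. The members were chosen with earlier results of these data known, so these shares are given for scale only. No member was called after either treatment at 40 °C, although Bcl2l11 stood just below the 1.5-fold limit after 6 h.

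**Figure D1:**
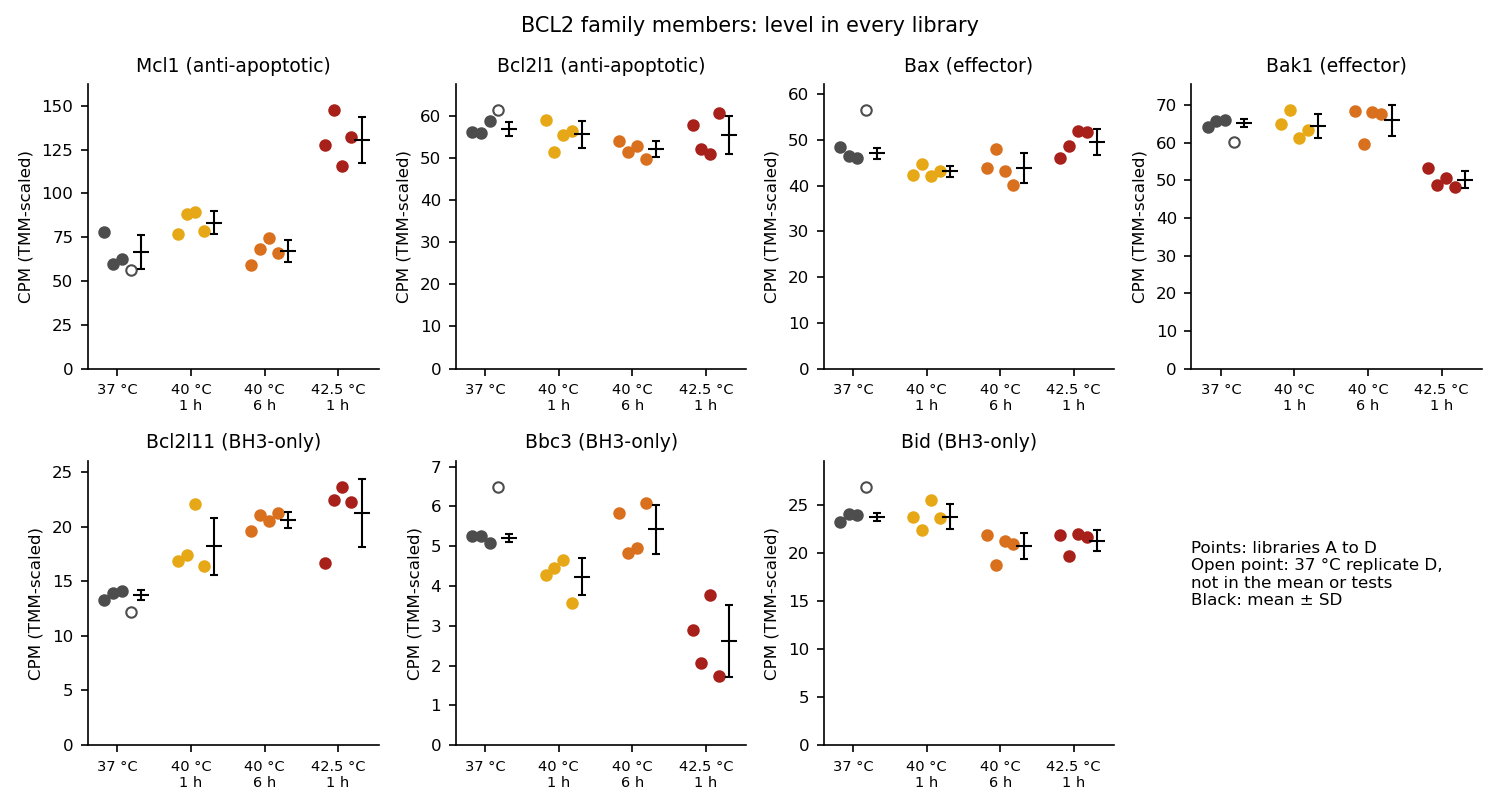
Level of the 7 tested BCL2 family members in every library, in TMM-scaled CPM on linear axes that start at 0, by group (points: libraries A to D in this order from left to right; open point: 37 °C replicate D; black: mean ± SD without that library). Mcl1 was between 116 and 148 CPM at 42.5 °C and at most 89.3 CPM elsewhere, and Bak1 and Bbc3 were lowest at 42.5 °C.

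Mcl1 (ENSCGRG00001017446) encodes a labile guardian that binds BIM, PUMA, NOXA and BAK. It was at 77.7, 59.7 and 62.8 CPM in 37 °C replicates A to C and at 56.1 CPM in replicate D. At 40 °C for 1 h the 4 libraries gave 77.1, 88.5, 89.3 and 78.6 CPM, and at 40 °C for 6 h they gave 59.4, 68.0, 74.5 and 66.0 CPM. At 42.5 °C for 1 h they gave 127.5, 148, 116 and 132 CPM. The 4 libraries at 42.5 °C lay above all others, and the 3 remaining groups overlapped one another except that every library at 40 °C for 6 h was below every library at 40 °C for 1 h.

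The group means of Mcl1 were 66.7 ± 9.67 CPM (SD, n = 3) at 37 °C, 83.4 ± 6.44 CPM (SD, n = 4) at 40 °C for 1 h, 67.0 ± 6.23 CPM at 40 °C for 6 h and 131 ± 13.2 CPM at 42.5 °C. Against 37 °C, the log2 fold change at 42.5 °C was 0.96 (SE 0.09, edgeR adjusted p = 5.37e-07). It kept its call under every alternative setting, with values between 0.88 and 1.09. The 42.5 °C libraries were also higher than those at 40 °C for 1 h, by 0.64 on the log2 scale (SE 0.07, edgeR adjusted p = 3.84e-06), and than those at 40 °C for 6 h, by 0.96 (SE 0.07, edgeR adjusted p = 2.09e-08).

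At 40 °C the Mcl1 values were smaller, and they differed between the short and the long treatment. After 1 h the log2 fold change against 37 °C was 0.32 (SE 0.08, edgeR adjusted p = 0.066), and 37 °C replicate A lay inside the range of the heated libraries. Without that control library it was 0.45 (edgeR adjusted p = 0.0083), and in a fit blocked by replicate letter it was 0.34 (edgeR adjusted p = 0.0092). With all 4 controls it was 0.38 (edgeR adjusted p = 0.35). Over 17 settings, counting the reported one, the adjusted p was under 0.05 in 4. After 6 h the log2 fold change was 0.0011, with a 95% confidence interval from -0.18 to 0.18. The direct comparison of 6 h with 1 h gave -0.31 (SE 0.07, edgeR adjusted p = 0.0048), which is 1.24-fold lower and under the 1.5-fold limit.

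Bcl2l1 (ENSCGRG00001004966) encodes BCL-XL, a more stable guardian that restrains BAX and BAK. Its group means were 57.02 ± 1.63 CPM (SD, n = 3) at 37 °C, 55.7 ± 3.17 CPM (SD, n = 4) at 40 °C for 1 h, 52.1 ± 1.90 CPM at 40 °C for 6 h and 55.5 ± 4.55 CPM at 42.5 °C. Replicate D at 37 °C gave 61.4 CPM. The value nearest to a difference was that at 40 °C for 6 h, with a log2 fold change of -0.13 against 37 °C (SE 0.06, edgeR adjusted p = 0.083). At 42.5 °C it was -0.04, with a 95% confidence interval from -0.17 to 0.09.

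Bax (ENSCGRG00001011816) and Bak1 (ENSCGRG00001012370) encode the effectors that form pores in the outer mitochondrial membrane. BAX waits largely in the cytosol and BAK sits in the membrane. The pair had unlike patterns. Bak1 was at 64.1, 65.9 and 66.0 CPM in 37 °C replicates A to C, at 60.3 CPM in replicate D, and at 53.2, 48.7, 50.6 and 48.3 CPM at 42.5 °C. All 4 libraries at 42.5 °C were below the 12 others.

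The Bak1 means were 65.3 ± 1.07 CPM (SD, n = 3) at 37 °C, 64.5 ± 3.15 CPM (SD, n = 4) at 40 °C for 1 h, 65.9 ± 4.23 CPM at 40 °C for 6 h and 50.2 ± 2.23 CPM at 42.5 °C. The log2 fold change at 42.5 °C against 37 °C was -0.39 (SE 0.05, edgeR adjusted p = 3.22e-05), or 1.31-fold lower. It passed the limit on the adjusted p, as did 43.1% of all tested genes, but not the 1.5-fold limit. Against 40 °C it was -0.37 for 1 h (SE 0.05, edgeR adjusted p = 7.35e-05) and -0.40 for 6 h (SE 0.06, edgeR adjusted p = 3.83e-05).

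Bax was at 47.1 ± 1.25 CPM (SD, n = 3) at 37 °C, 43.1 ± 1.23 CPM (SD, n = 4) at 40 °C for 1 h, 43.8 ± 3.32 CPM at 40 °C for 6 h and 49.6 ± 2.82 CPM at 42.5 °C. Replicate D at 37 °C was higher than every other library, at 56.5 CPM. Against 37 °C the log2 fold change of Bax was -0.13 after 1 h at 40 °C (edgeR adjusted p = 0.28), -0.11 after 6 h (edgeR adjusted p = 0.24) and 0.07 at 42.5 °C (edgeR adjusted p = 0.36). Between heated groups Bax was higher at 42.5 °C than at 40 °C for 1 h, by 0.20 (SE 0.06, edgeR adjusted p = 0.013), and than at 40 °C for 6 h, by 0.17 (SE 0.07, edgeR adjusted p = 0.039). Both differences were below the 1.5-fold limit. With library totals in place of TMM they were 0.14 and 0.12, with edgeR adjusted p of 0.067 and 0.14. Over the 17 alternatives the adjusted p was under 0.05 in 15 and in 9, respectively.

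Bcl2l11 (ENSCGRG00001017910) encodes BIM, a BH3-only protein that binds every guardian and can act on BAX and BAK. It was at 13.3, 13.9 and 14.1 CPM in 37 °C replicates A to C and at 12.2 CPM in replicate D. At 40 °C for 1 h it was at 16.9, 17.4, 22.1 and 16.4 CPM, at 40 °C for 6 h at 19.6, 21.1, 20.5 and 21.3 CPM, and at 42.5 °C at 16.7, 22.4, 23.6 and 22.2 CPM. All 12 heated libraries were above all 4 at 37 °C, and the 3 heated groups overlapped one another. Replicate C was the highest library at 40 °C for 1 h and replicate A the lowest at 42.5 °C, and neither is among the libraries flagged as outliers below.

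The mean of Bcl2l11 was 13.8 ± 0.46 CPM (SD, n = 3) at 37 °C, 18.2 ± 2.63 CPM (SD, n = 4) at 40 °C for 1 h, 20.6 ± 0.75 CPM at 40 °C for 6 h and 21.2 ± 3.09 CPM at 42.5 °C. Against 37 °C the log2 fold change was 0.40 after 1 h at 40 °C (SE 0.11, edgeR adjusted p = 0.075). With the replicate letter as a block it was 0.44 (edgeR adjusted p = 0.0058). Without 37 °C replicate A it was 0.37 (edgeR adjusted p = 0.24), and with all 4 controls it was 0.44 (edgeR adjusted p = 0.32). Over 17 settings, counting the reported one, the adjusted p was under 0.05 in 2. The log2 fold change was 0.58 after 6 h (SE 0.08, edgeR adjusted p = 9.51e-05) and 0.62 at 42.5 °C (SE 0.11, edgeR adjusted p = 0.00035). The limit of 1.5-fold is 0.585 on this scale, so the 6 h value, a fold change of 1.49, was not called and the 42.5 °C value, a fold change of 1.53, was.

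The calls alone do not show that these groups differed. Set directly against 40 °C for 6 h, Bcl2l11 at 42.5 °C gave a log2 fold change of 0.04 with a 95% confidence interval from -0.17 to 0.24. Set against 40 °C for 1 h it gave 0.22, with an interval from -0.02 to 0.46 (edgeR adjusted p = 0.15). The 42.5 °C call was kept in 13 of 17 alternatives. It was lost without 42.5 °C replicate C (0.57), with library totals in place of TMM (0.54), in the fit blocked by replicate letter (0.58) and with glmTreat, a test against 1.5-fold itself. The 6 h value was called with all 4 controls (0.62), without 37 °C replicate B (0.59) or C (0.60), or without 40 °C 6 h replicate A (0.60). Apart from glmTreat, only the size limit was crossed in these fits, and the edgeR adjusted p was at most 0.0041 in each.

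**Figure D2:**
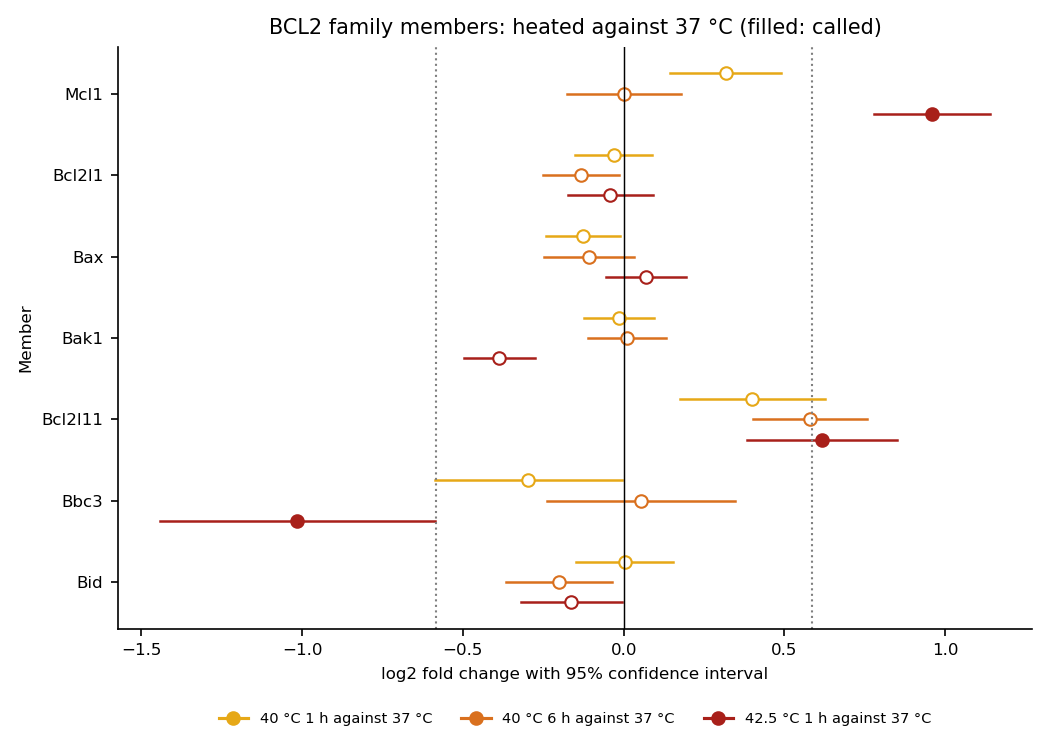
Log2 fold change of the 7 tested members against 37 °C with its 95% confidence interval, for 1 h and 6 h at 40 °C and 1 h at 42.5 °C (filled points: called; dotted lines: 1.5-fold either way). Bcl2l11 lies to the right of 0 in all 3 comparisons, at 0.40, 0.58 and 0.62, whereas Mcl1, Bak1 and Bbc3 are far from 0 at 42.5 °C, at 0.96, -0.39 and -1.01.

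**Figure D3:**
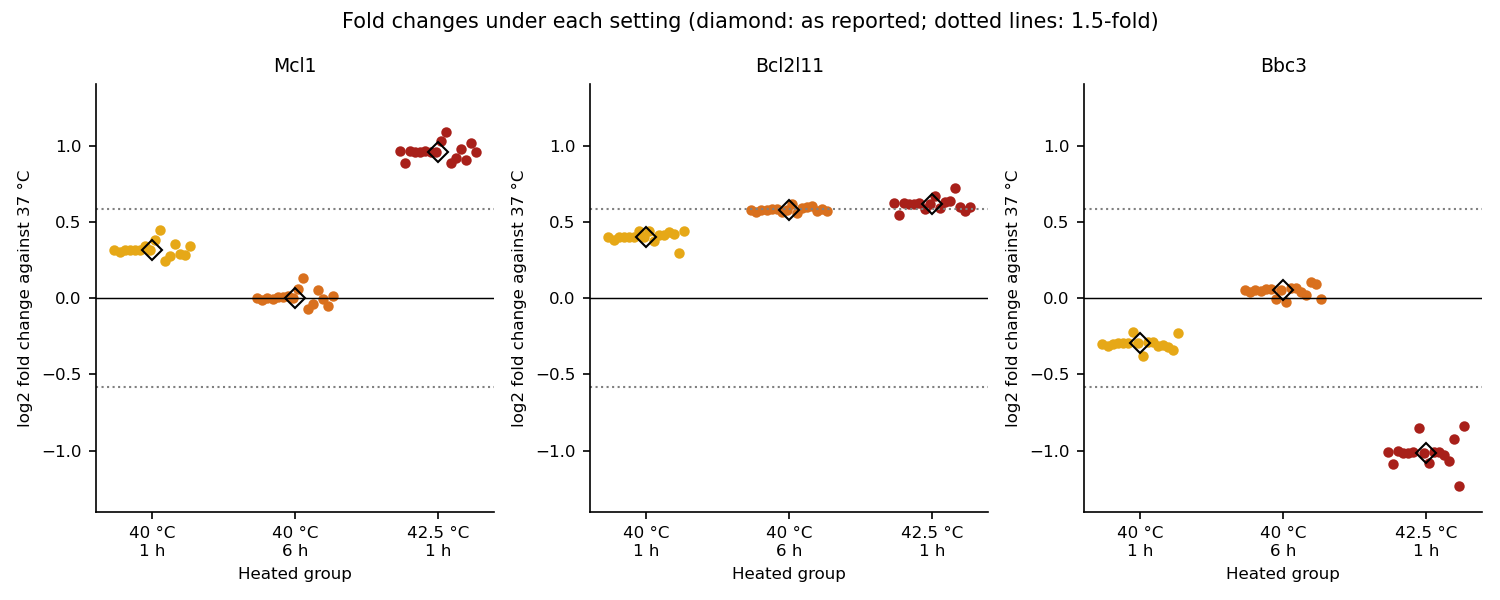
Log2 fold change of Mcl1, Bcl2l11 and Bbc3 against 37 °C under the reported setting (diamonds) and each alternative (points), by heat treatment. At 42.5 °C Mcl1 stays between 0.88 and 1.09 and Bbc3 between -1.23 and -0.84, whereas Bcl2l11 lies on both sides of the 1.5-fold limit of 0.585 after 6 h at 40 °C (0.56 to 0.62) and at 42.5 °C (0.54 to 0.72).

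Bbc3 (ENSCGRG00001017224) encodes PUMA, a strong BH3-only protein best known as a target of p53. It was read from few counts, between 21 and 78 per library. The CPM values were 5.26, 5.25 and 5.09 in 37 °C replicates A to C and 6.49 in replicate D. At 40 °C they were 4.28, 4.45, 4.65 and 3.57 after 1 h and 5.82, 4.83, 4.97 and 6.08 after 6 h. At 42.5 °C they were 2.89, 2.07, 3.78 and 1.74, all below every library at 37 °C and at 40 °C for 6 h, with replicate C inside the range of 40 °C for 1 h.

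The mean of Bbc3 was 5.20 ± 0.098 CPM (SD, n = 3) at 37 °C, 4.24 ± 0.47 CPM (SD, n = 4) at 40 °C for 1 h, 5.43 ± 0.62 CPM at 40 °C for 6 h and 2.62 ± 0.91 CPM at 42.5 °C. The log2 fold change at 42.5 °C against 37 °C was -1.01 (SE 0.20, edgeR adjusted p = 0.00088), and it stayed between -1.23 and -0.84 over all alternatives. Against 40 °C it was -1.07 for 6 h (SE 0.20, edgeR adjusted p = 0.00030) and -0.72 for 1 h (SE 0.20, edgeR adjusted p = 0.012). The last call was lost without 42.5 °C replicate D, where the value was -0.54 (edgeR adjusted p = 0.047). After 1 h at 40 °C the value against 37 °C was -0.30 (SE 0.14, edgeR adjusted p = 0.33), and after 6 h it was 0.05 (SE 0.14, edgeR adjusted p = 0.80).

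Bid (ENSCGRG00001018855) encodes a BH3-only protein that caspase-8 cuts into its active form and so joins the death receptors to the mitochondria. Its mean was 23.7 ± 0.44 CPM (SD, n = 3) at 37 °C, 23.8 ± 1.28 CPM (SD, n = 4) at 40 °C for 1 h, 20.7 ± 1.35 CPM at 40 °C for 6 h and 21.3 ± 1.10 CPM at 42.5 °C, and replicate D gave 26.9 CPM. The libraries at 40 °C for 6 h and at 42.5 °C were all below those at 37 °C. The log2 fold changes were -0.20 (SE 0.08, edgeR adjusted p = 0.061) and -0.16 (SE 0.07, edgeR adjusted p = 0.088), so neither passed the test.

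Pmaip1 (ENSCGRG00001014355) encodes NOXA, the BH3-only protein that binds MCL1 most selectively. It had a row and 0 counts in all 16 libraries. A count of 0 allows up to 3 counts, which is between 0.204 and 0.296 CPM per library and 0.0152 CPM over all 16 libraries together. Its response to heat could therefore not be measured with these counts.

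Bmf (ENSCGRG00001023070) encodes a BH3-only protein linked to loss of attachment. It had between 1 and 7 counts per library, 55 in all, and was below the filter on low counts in every comparison. Summed over a group it had 14 counts in 37 °C replicates A to C (0.354 CPM, exact 95% Poisson interval 0.193 to 0.594), 15 at 40 °C for 1 h (0.284 CPM, 0.159 to 0.468), 12 at 40 °C for 6 h (0.243 CPM, 0.125 to 0.424) and 8 at 42.5 °C (0.181 CPM, 0.0781 to 0.357). The 4 intervals, which cover counting error only, overlapped, so no difference in Bmf was detectable at this depth.

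After 1 h at 40 °C no member was called with edgeR or with DESeq2, against 0.334% of all tested genes with edgeR. At an unadjusted p under 0.05 there were 4 of 7 (Mcl1, Bax, Bcl2l11 and Bbc3), against 14.8% of all tested genes. The libraries of 3 members (Bax, Bcl2l11 and Bbc3) did not overlap with the controls, as in 13.4% of all tested genes. The median log2 fold change was -0.016 over the 7 members and 0.00032 over all tested genes. Samples with the same letter deviated together in this comparison, with r of at least 0.101 in each of 3 pairs. With the letter as a block Mcl1 and Bcl2l11 passed on the adjusted p and remained below 1.5-fold. With the DESeq2 Wald test the adjusted p was 0.014 for Mcl1 and 0.053 for Bcl2l11. With all 4 controls neither passed (edgeR adjusted p = 0.35 for Mcl1 and 0.32 for Bcl2l11).

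After 6 h at 40 °C no member was called with edgeR or with DESeq2, against 3.11% of all tested genes with edgeR. On the adjusted p alone Bcl2l11 passed, as did 29.4% of all tested genes, and at an unadjusted p under 0.05 there were 3 of 7 (Bcl2l1, Bcl2l11 and Bid), against 41.0% of all tested genes. The libraries of these 3 did not overlap with the controls, against 36.2% of all tested genes. The median log2 fold change was 0.0011 over the members and 0.0012 over all tested genes. At 42.5 °C, 4 of 7 members passed on the adjusted p alone, 2 higher (Mcl1 and Bcl2l11, against 20.8% of all tested genes) and 2 lower (Bak1 and Bbc3, against 22.3%). There the libraries of 5 members did not overlap with the controls, against 46.0% of all tested genes. The median was -0.04 over the members and -0.0017 over all tested genes. These 3 comparisons share the same 37 °C libraries.

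Between the heated groups, 6 h against 1 h at 40 °C gave no called member with edgeR or DESeq2, against 1.28% of all tested genes with edgeR. On the adjusted p alone 1 member passed (Mcl1, lower after 6 h), against 18.5% of all tested genes, and 3 of 7 (Mcl1, Bbc3 and Bid) had an unadjusted p under 0.05, against 32.3%. The libraries of these 3 did not overlap, against 21.3% of all tested genes. At 42.5 °C against 40 °C for 1 h, Mcl1 and Bbc3 were called, against 5.27% of all tested genes (1.75% higher and 3.51% lower). Bax and Bak1 joined them on the adjusted p alone, against 36.1%, and the libraries of Mcl1, Bax, Bak1 and Bid did not overlap, against 34.1%. At 42.5 °C against 40 °C for 6 h the called members were again Mcl1 and Bbc3, against 8.25% of all tested genes (2.53% higher and 5.72% lower). Bax and Bak1 joined them on the adjusted p alone, against 47.0%, and the libraries of Mcl1, Bak1 and Bbc3 did not overlap, against 41.8%. In both of these comparisons Bcl2l1, Bcl2l11 and Bid did not pass on the adjusted p. The comparisons between heated groups also share libraries with each other and with those against 37 °C.

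**Figure D4:**
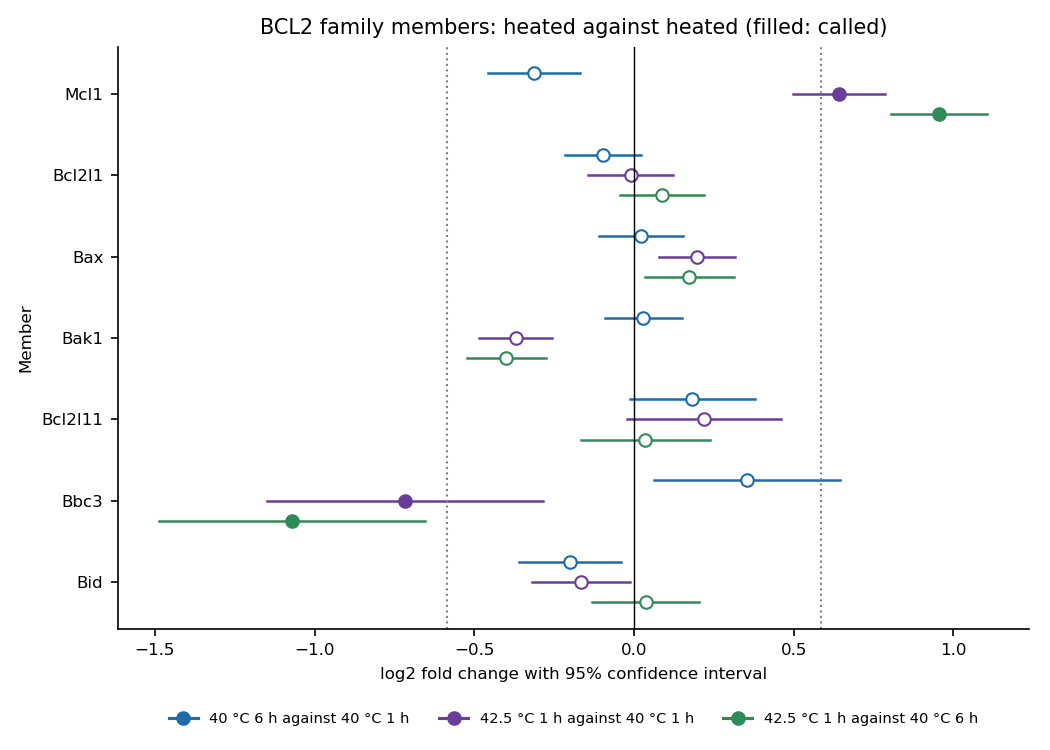
Log2 fold change of the 7 tested members between heated groups with its 95% confidence interval (filled points: called; dotted lines: 1.5-fold either way). Mcl1 is called higher and Bbc3 lower at 42.5 °C than at 40 °C for 1 h (0.64 and -0.72) and for 6 h (0.96 and -1.07), whereas Bcl2l11 at 42.5 °C is at 0.22 and 0.04.

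Across the 15 tested libraries, the log2 CPM of Mcl1 had a Pearson's r of -0.89 with that of Bak1 and of -0.89 with that of Bbc3, and Bak1 and Bbc3 had an r of 0.87. Bcl2l11 had an r of 0.45 with Mcl1 and of -0.34 with Bbc3. These values describe libraries that fall into 4 groups, so they hold the differences between groups as well as those between replicates.

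The genes whose log2 CPM over these libraries was most like that of Mcl1, among 9459 genes listed by a symbol, were Hbegf (r = 0.954), Cdk17 (r = 0.953) and Dusp1 (r = 0.951). Hbegf, which encodes a growth factor of the EGF family, went from 20.5 ± 2.64 CPM (SD, n = 3) at 37 °C to 67.8 ± 14.8 CPM (SD, n = 4) at 42.5 °C, with 26.6 ± 3.30 CPM at 40 °C for 1 h and 17.1 ± 1.12 CPM at 40 °C for 6 h. The genes most like Bcl2l11 were Esco2 (r = 0.928), Fxr1 (r = 0.912) and Lrif1 (r = 0.893). Lrif1 was at 21.2 ± 0.94 CPM at 37 °C, 24.9 ± 1.64 CPM at 40 °C for 1 h, 29.7 ± 2.79 CPM at 40 °C for 6 h and 29.5 ± 1.62 CPM at 42.5 °C. The genes most like Bbc3 were Arhgef17 (r = 0.945), Calhm2 (r = 0.940) and Erbb2 (r = 0.933). Erbb2, a receptor tyrosine kinase of the EGF receptor family, was at 63.8 ± 2.29 CPM at 37 °C and 47.0 ± 5.91 CPM at 42.5 °C.

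Several lists of genes that work with the members were counted in the same way. On the adjusted p alone, 1.64% of all tested genes passed after 1 h at 40 °C, 29.4% after 6 h and 43.1% at 42.5 °C, and the counts of list genes on the adjusted p alone are to be read against these shares. For called list genes the shares are 0.334% after 1 h at 40 °C, 3.11% after 6 h and 7.51% at 42.5 °C (2.83% higher and 4.68% lower). Among other genes of the BCL2 family, 11 of 13 listed had a row and 6 were tested (BCL2, Bcl2l2, Bcl2l12, Bcl2l13, Bnip3 and Bnip3l). None of the 6 was called against 37 °C with edgeR in any of the 3 heated groups, and 1 passed on the adjusted p alone, higher at 42.5 °C. Bok had at most 1 count and Bik at most 6 counts in any library, Bcl2l15 had 1 count in all, and Hrk and Bcl2l14 had 0 counts. Caspases and the proteins that mitochondria release (10 listed, 7 tested) had no called gene in any comparison with 37 °C, and on the adjusted p alone 1 was higher and 1 lower after 6 h at 40 °C and 1 lower at 42.5 °C.

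The inhibitors of apoptosis (6 listed, 5 tested) had 1 called gene after 6 h at 40 °C and 1 at 42.5 °C. It was Birc3, a ubiquitin ligase of the tumour necrosis factor receptor complex, on both occasions. On the adjusted p alone 2 of 5 were lower after 6 h, and 1 was higher and 3 were lower at 42.5 °C. The higher one at 42.5 °C was Cflar, an inhibitor of caspase-8 named here after its values were seen, with a log2 fold change of 0.51 (edgeR adjusted p = 0.00038). After 6 h at 40 °C Cflar was at -0.37 (edgeR adjusted p = 0.00046). Birc3 fell from 48.0 ± 2.19 CPM (SD, n = 3) to 31.2 ± 4.29 CPM (SD, n = 4) with 6 h at 40 °C, a change of -0.63 on the log2 scale (SE 0.09, edgeR adjusted p = 5.78e-05). At 42.5 °C it was at 30.8 ± 5.87 CPM, a log2 fold change of -0.65 (SE 0.10, edgeR adjusted p = 0.00012). After 1 h at 40 °C it was at 45.1 ± 1.16 CPM and not called (-0.09, edgeR adjusted p = 0.47).

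The death receptor arm, which feeds into Bid (7 listed, 6 tested), had 2 called genes, both lower at 42.5 °C. On the adjusted p alone 1 of 6 was lower after 1 h at 40 °C, 1 after 6 h and 3 at 42.5 °C. Tnfrsf1a, a receptor for tumour necrosis factor, fell from 37.0 ± 1.57 CPM (SD, n = 3) to 22.7 ± 2.32 CPM (SD, n = 4), a log2 fold change of -0.71 (SE 0.08, edgeR adjusted p = 4.35e-06). Fadd, the adaptor that recruits caspase-8, fell from 9.75 ± 1.35 CPM to 6.37 ± 0.85 CPM, a log2 fold change of -0.62 (SE 0.13, edgeR adjusted p = 0.0016). At 40 °C neither was called, with log2 fold changes between -0.25 and 0.05.

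Of 9 transcription factors known to act on member genes, 8 were tested. On the adjusted p alone 1 was higher after 1 h at 40 °C, 1 was higher and 2 lower after 6 h, and 3 were higher and 1 lower at 42.5 °C. Jun, a component of AP-1, rose from 70.8 ± 4.41 CPM (SD, n = 3) to 145 ± 42.7 CPM (SD, n = 4) at 40 °C for 1 h (log2 fold change 1.04, SE 0.16, edgeR adjusted p = 0.0041) and to 159 ± 16.6 CPM at 42.5 °C (1.16, SE 0.07, edgeR adjusted p = 1.29e-08), and was at 64.7 ± 2.04 CPM at 40 °C for 6 h. Atf4, a factor of the integrated stress response, fell from 195 ± 29.2 CPM to 116 ± 6.42 CPM at 40 °C for 6 h (-0.75, SE 0.07, edgeR adjusted p = 2.68e-06). It was not called after 1 h at 40 °C (-0.24) or at 42.5 °C (0.08). Among 15 listed proteins known to act on member proteins, such as kinases and ubiquitin ligases, 13 were tested and none was called against 37 °C with edgeR, and 5 passed on the adjusted p alone after 6 h at 40 °C and 7 at 42.5 °C.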

How the data were processed

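RNA of 16 CHO cultures was sequenced with paired ends from TruSeq RNA libraries. In CLC Genomics Workbench the authors trimmed and mapped the reads (genome CHOK1GS_HDv1) and counted them per gene, and the deposited values are raw counts of each library without normalization. The annotation release, use of strand and treatment of reads with several places were not given in the sources used here.

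Groups came from the sample titles. For 15 libraries all 920 gene counts in the study's supplementary table were identical to the deposited counts, whereas 36 were for 37 °C replicate D, which was left out as in the study. Groups were compared pairwise with edgeR 4.0.16 in R 4.3.3 (filterByExpr, TMM, quasi-likelihood test, Benjamini-Hochberg over all tested genes). P-values set the difference between groups against the spread between these libraries, and the 95% confidence intervals of log2 fold changes include that spread. The Poisson intervals of Bmf and the floors of 3 counts cover counting error only. Depth ran from 10504192 to 14668365 counts. The fit was also run on simulated counts, with changes well above the 1.5-fold limit planted in abundant genes only. That run does not bear on genes with few counts or on calls near the limit.

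The members and lists were chosen with earlier results of these data known. Named genes were the 10 members, list genes called against 37 °C, and the 3 genes most like each called member. Some list genes were not analysed here. In RefSeq's annotation of another assembly, Bcl2l11 overlapped Acoxl, which had 0 counts here, and Bcl2l1 overlapped LOC118239052. Same-letter samples were checked for shared deviations from group means. For 40 °C 1 h with 37 °C, r was between 0.101 and 0.186 over 3 pairs, with a mean of 0.158. At least 1 pair was at or under 0.0016 in each other comparison. The sample titles give letters but state no pairing. The reported fits have no block in any comparison, and the blocked fit is an alternative throughout. Alternatives were DESeq2 1.42.0, 2 other scalings, 2 other filters, 1 fit over 4 groups, the letter as a block, other call rules, all 4 controls and each library left out.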

Additional observations from a re-analysis of the deposited data

Results flagged for a closer look

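In 5 of the 32 groups of 4 libraries tested (8 members with a count in 4 groups), 1 library stood far from the other 3 relative to the range of the group. Chance alone flags about 1 in 20 such groups. Bak1 was at 59.6 CPM in 40 °C 6 h replicate B and between 67.6 and 68.5 CPM in the others. Bbc3 was at 6.49 CPM in 37 °C replicate D and between 5.09 and 5.26 CPM in replicates A to C. Bid was at 19.6 CPM in 42.5 °C replicate B and between 21.6 and 22.0 CPM in the others. Bmf was at 0.534 CPM in 37 °C replicate D, from 6 counts, and between 0.345 and 0.365 CPM in replicates A to C. It was at 0.485 CPM in 42.5 °C replicate C, from 5 counts, and between 0.0789 and 0.0987 CPM, 1 count each, in the others. Leaving out 40 °C 6 h replicate B or 42.5 °C replicate B gave no call of Bak1 or Bid, Bbc3 at 42.5 °C was called with and without 37 °C replicate D, and Bmf was not tested.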

How the results depend on the processing

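The calls of Mcl1 at 42.5 °C against 37 °C and against 40 °C for 6 h were kept under all 17 alternatives. Those of Bbc3 in the same comparisons were lost only with edgeR's glmTreat, where 1.5-fold is the null. With glmTreat 1 member was called at 42.5 °C against 37 °C (Mcl1), 1 against 40 °C for 6 h (Mcl1) and 0 against 40 °C for 1 h. On the adjusted p alone 1 member was called at 40 °C for 6 h against 37 °C (Bcl2l11), 1 for 6 h against 1 h (Mcl1), 4 at 42.5 °C against 40 °C for 1 h and 4 against 40 °C for 6 h. With all 4 controls 1 was called at 40 °C for 6 h (Bcl2l11). Leaving out 1 library gave 0 to 1 called members at 40 °C for 6 h against 37 °C (1 without 37 °C replicate B or C or 40 °C 6 h replicate A) and 1 to 2 at 42.5 °C against 40 °C for 1 h (1 without 42.5 °C replicate D). The cause was not tested.

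The replicate letter as a block took the call from Bcl2l11 at 42.5 °C against 37 °C (0.58, edgeR adjusted p = 2.31e-05), leaving 2 called members, and changed no other member's call. In that comparison r between same-letter samples was between 0.0016 and 0.099 over 3 pairs. Its mean was 0.038, and that of samples with unlike letters was -0.013. For 40 °C 1 h against 37 °C, the block moved the count over all genes from 35 to 48.

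Signs turned only in values near 0 that were not called. At 40 °C for 1 h against 37 °C they turned for Bid with library totals (-0.015), with all 4 controls (-0.043) and in leave-one-out fits (-0.031 to 0.031), for Bak1 with all 4 controls (0.011) and in leave-one-out fits (-0.046 to 0.0080), and for Bcl2l1 in leave-one-out fits (-0.065 to 0.0039). At 40 °C for 6 h against 37 °C they turned for Mcl1 with library totals (-0.015), without a filter (-0.0043) and in leave-one-out fits (-0.071 to 0.13), for Bak1 with library totals (-0.0061), with the replicate block (-0.0039) and in leave-one-out fits (-0.0067 to 0.056), and for Bbc3 with the replicate block (-0.0034), with all 4 controls (-0.027) and in leave-one-out fits (-0.0028 to 0.11). With library totals they turned for Bax at 42.5 °C against 37 °C (-0.0054) and, against 40 °C for 6 h, for Bcl2l11 (-0.019) and Bid (-0.018). Leave-one-out fits turned Bax for 6 h against 1 h (-0.026 to 0.062), Bcl2l1 at 42.5 °C against 40 °C for 1 h (-0.051 to 0.034) and, against 40 °C for 6 h, Bid (-0.0070 to 0.073) and Bcl2l11 (-0.020 to 0.14).

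Over all genes, calls at 40 °C for 1 h against 37 °C numbered 35, and 3 with all 4 controls, 56 without 40 °C 1 h replicate B and 23 without replicate C. In the 6 comparisons glmTreat called 2, 31, 262, 8, 171 and 260 genes, and the adjusted p alone 172, 3091, 4510, 1930, 3767 and 4904, where the reported rule called 35, 326, 786, 134, 550 and 860. With library totals the calls at 42.5 °C against 37 °C split into 230 higher and 647 lower, beside 296 and 490. Of 612 recomputed list counts, 54 moved. Bbc3 and Bmf rest on the fewest counts. For Pmaip1, with 0 counts, low depth, no expression and a gene model that collects no reads cannot be told apart.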
